A study of Homo sapiens with 16 samples.

Results

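The 9 genes described here belong to the cyclin D axis and to the recurrent myeloma translocations, and were measured in 2 human multiple myeloma cell lines after repression of KANSL2. They were the D-type cyclin genes CCND1, CCND2 and CCND3, the kinase genes CDK4 and CDK6, the kinase inhibitor gene CDKN2C, the transcription factor gene MAF, the receptor gene FGFR3 and the histone methyltransferase gene NSD2. All 9 were found by symbol among the 28277 symbols of each line's table. The RNA libraries came from INA6 and JJN3, established plasma cell lines labelled as untreated, and each line was used in 2 groups. One group carried CRISPR interference, given as dCas9-CRAB, against KANSL2, a subunit of the histone-acetylating NSL complex. The control group carried non-targeting guides and is called nt here. Each of the 4 groups had 3 libraries, 12 in all. The guides, the time after transduction and the translocation status of the lines are not given in the sources used here. The labels do not say whether libraries of a group were separate cultures, so p-values rest on the spread among 3 libraries, and that spread may be technical.

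D-type cyclins bind CDK4 and CDK6, and the active kinases phosphorylate the retinoblastoma protein, which releases E2F factors and lets a cell leave G1. CDKN2C encodes p18, an INK4 protein that binds both kinases and blocks them. In myeloma, translocations place CCND1, CCND3, MAF or the FGFR3 and NSD2 pair under immunoglobulin enhancers, and MAF is known to raise CCND2 in plasma cells.

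The values were regularised log (rlog) expression on the log2 scale, scaled in each line separately, so no level was compared between lines. Library depth is unknown. Libraries within a line were alike, with a lowest pairwise correlation across tested genes of 0.994 in INA6 and 0.996 in JJN3. KANSL2 checked the labels. It stood at 8.06, 8.02 and 8.16 in the INA6 nt libraries and at 7.71, 7.60 and 7.76 after knockdown, and at 7.25, 7.24 and 7.19 against 6.00, 5.98 and 6.06 in JJN3. Knockdown libraries held 76.4% of the nt level in INA6 and 43.1% in JJN3, without overlap (limma adjusted p = 3.06e-05 and 1.48e-16). The fall of KANSL2 thus differed between the lines (JJN3 minus INA6 −0.82, adjusted p = 2.11e-11 in the test between lines described below). Where a gene's change differs between the lines, line and depth of knockdown cannot be told apart. Of 10 plasma cell markers, 9 reached a mean of 3 in both lines, CD27 being the exception, as did 1 of 5 B cell, 2 of 5 T cell and 1 of 5 myeloid markers in INA6 and 2, 1 and 1 in JJN3. No stromal marker reached it. MS4A1 and FCGR3A were at 0 in INA6, and CD3D, LYZ, FCGR3A, DCN and PDGFRB in JJN3. Some markers moved with the groups. In JJN3 the B cell marker MS4A1 rose by 0.64 (adjusted p = 1.62e-10), CD79A fell by 0.15 (0.00487) and the T cell marker CD3E fell by 0.18 (0.0108), while no tested B cell, T cell or myeloid marker was called in INA6. Of the 9 plasma cell markers tested, 6 fell and 2 rose in INA6, while 5 rose and 1 fell in JJN3. Over all tested genes 48.6% in INA6 and 51% in JJN3 had an adjusted p below 0.05, in either direction. The summed level of the plasma cell list (log2) ran from 16.69 to 16.72 in nt and from 16.17 to 16.35 in knockdown libraries of INA6, and from 16.48 to 16.52 and 16.61 to 16.66 in JJN3. The part of these markers in the members' differences was not tested. In bulk RNA fewer cells of a kind and less RNA per cell cannot be told apart.

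Different members stood high in the control libraries of the 2 lines. INA6 had a high value for CCND1 and listed CCND2 and MAF at 0 in all 6 libraries, whereas JJN3 had high values for MAF and CCND2 and a low one for CCND1. Ranks were taken on the mean nt value among symbols that were not at 0 throughout, 19366 in INA6 and 18204 in JJN3. They are not per length, because the reference table gives genomic spans and no transcript lengths, so they describe a gene's place in its table. CCND1 ranked 57 in INA6, between 52 and 58 in single nt libraries, and 12148 in JJN3. MAF ranked 39 in JJN3 (37 to 43 in single libraries) and CCND2 ranked 68 (68 to 74). A listed 0 does not show that a gene is silent, since EIF4A1, a translation factor that every cell uses, was also at 0 in all 12 libraries.

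Other members ranked high in both lines. CDKN2C ranked 92 in INA6 and 217 in JJN3, and CDK6 ranked 173 and 102. NSD2 ranked 182 in INA6 and 1494 in JJN3. CCND3 was at rank 5146 and 3267, and CDK4 at rank 5914 and 5904. FGFR3, which lies beside NSD2 on chromosome 4, was low in both lines, at rank 13221 and 12399. NSD2 thus stood in the top 0.940% of the INA6 symbols while FGFR3 stood at 68.3%.

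**Figure D1:**
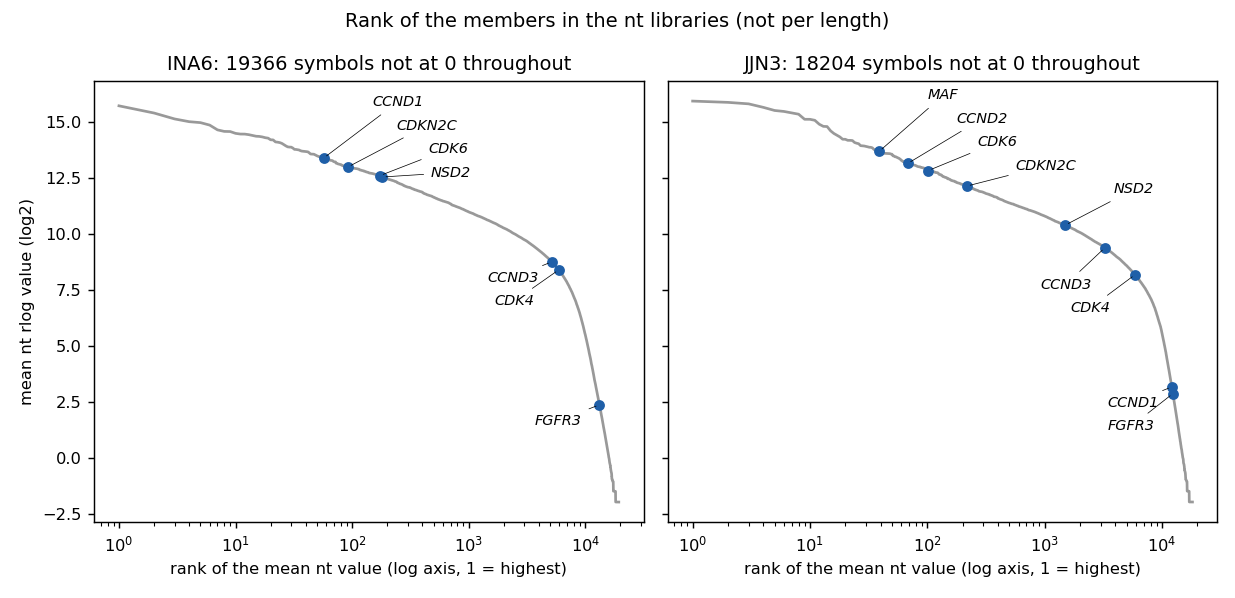
Mean nt rlog value (log2) of every symbol not at 0 throughout, ordered by rank on a log axis, for INA6 (left) and JJN3 (right); points mark the members. CCND1 sits at rank 57 in INA6 and 12148 in JJN3, MAF and CCND2 at ranks 39 and 68 in JJN3, and neither MAF nor CCND2 has a point in INA6, where both were listed at 0.

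The effect of the knockdown was tested within each line with limma over all genes with a mean of at least 3, which 6 of the 9 members reached in INA6 and 8 in JJN3. MAF and CCND2 did not reach it in INA6, and FGFR3 did not in either line. CCND1 in JJN3 passed with a mean of 3.24 and FGFR3 missed it with 2.89. Genes with an adjusted p below 0.05 were called. In INA6, 3 of the 6 tested members rose and the other 3 had no call, where 48.6% of all 12511 tested genes were called, 24.7% upwards and 24% downwards. In JJN3, 6 of the 8 rose and 1 fell, where 51% of 12282 genes were called, 25.5% upwards and 25.5% downwards. With quantile normalisation the JJN3 members split into 3 up and 2 down, and without nt replicate 1 or knockdown replicate 2 into 4 up and 1 down. The INA6 share of called members is near that background. The median difference of the tested members was 0.13 in INA6 and 0.14 in JJN3, and that of all tested genes was 0.001 in both. Centring each library on its median turned the split of all calls from 3084 up and 3000 down to 3904 and 2400 in INA6, and from 3135 and 3129 to 3768 and 2571 in JJN3. All differences were small, the largest in size among the members being 0.36 on the log2 scale. The groups did not overlap in 4 of 6 tested members in INA6 and 7 of 8 in JJN3, where 55.2% and 56.1% of tested genes did not.

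**Figure D2:**
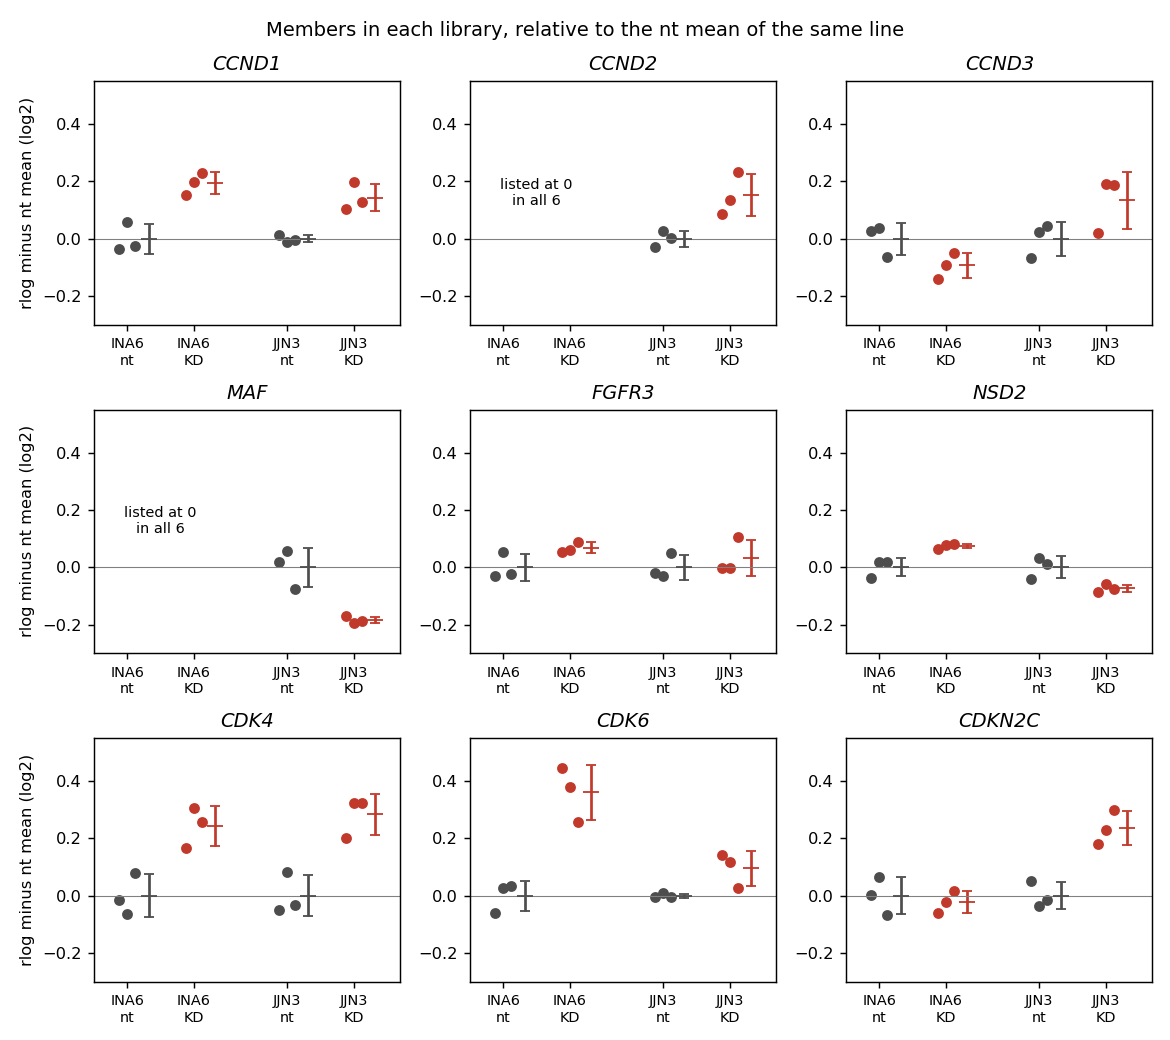
Each member's rlog value minus the nt mean of its own line (log2), by library (points), with the group mean and SD beside them, n = 3; grey is nt and red is KANSL2 knockdown (KD). CDK4 and CCND1 lie above all nt libraries in both lines, and MAF lies below them in JJN3.

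Among the cyclins, CCND1 was higher after knockdown in both lines. CCND1 lies on chromosome 11 from 69641156 to 69654474 (GRCh38.p14). Its rlog values in INA6 were 13.35, 13.45 and 13.36 in nt and 13.54, 13.59 and 13.62 in knockdown libraries. Every knockdown library lay above every nt library. The difference of 0.19 (SE 0.0403) corresponds to 114% of the nt level, with limma adjusted p = 0.00046. In JJN3, where the gene was near the lower limit for testing, the values were 3.19, 3.16 and 3.17 in nt and 3.28, 3.37 and 3.30 after knockdown. These groups did not overlap either, and the difference was 0.14 (SE 0.0341, adjusted p = 0.000845). The rlog scale shrinks genes with few reads, so this value can understate a change. The change did not differ detectably between lines (JJN3 minus INA6 −0.05, 95% interval −0.16 to 0.06, adjusted p = 0.497). The same shrinkage enters this comparison, so it does not show that the changes were alike.

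CCND2 rose in JJN3. It was listed at 0 in INA6 and could not be tested there. It lies on chromosome 12 from 4273762 to 4305353 and read 13.12, 13.17 and 13.15 in nt against 13.23, 13.28 and 13.38 in knockdown libraries. The groups were apart, and the difference was 0.15 (SE 0.0400, adjusted p = 0.00215). Quantile normalisation ended this call (0.06, adjusted p = 0.172, with 0.000109 to 0.172 over all alternatives). The antisense transcript CCND2-AS1 overlaps 2423 bases of the gene and had a mean of 2.11 in JJN3. Whether counting used strand is not stated, so reads in that overlap cannot be told apart.

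CCND3, the remaining D-type cyclin gene, did not move alike in the 2 lines. In INA6 it stood at 8.78, 8.79 and 8.69 in nt and at 8.61, 8.66 and 8.70 after knockdown, overlapping groups with a difference of −0.09 (SE 0.0541, adjusted p = 0.161). The JJN3 values were 9.32, 9.41 and 9.43 in nt and 9.40, 9.58 and 9.57 in knockdown libraries. Knockdown replicate 1 lay within the nt range, the other 2 above it. The JJN3 difference was 0.13 (SE 0.0497, adjusted p = 0.0255). Several alternatives ended that call: no filter on low values (adjusted p = 0.0566), quantile normalisation (0.0965), and leaving out nt replicate 1 (0.146), knockdown replicate 2 (0.148) or knockdown replicate 3 (0.0956), in a range of 0.000977 to 0.148. The changes differed by 0.23 between lines (95% interval 0.08 to 0.37, adjusted p = 0.0152), where 30% of 11137 genes tested in both lines differed. That difference missed the threshold without JJN3 nt replicate 1 (adjusted p = 0.0577) or knockdown replicate 2 (0.0588), in a range of 0.00164 to 0.0588.

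CDK4, one of the 2 kinases the D-type cyclins activate, was higher after knockdown in both lines. It lies on chromosome 12 from 57747727 to 57752310. The INA6 values were 8.38, 8.33 and 8.48 in nt and 8.56, 8.70 and 8.65 in knockdown libraries. JJN3 gave 8.13, 8.26 and 8.15 against 8.38, 8.50 and 8.51. No knockdown library of either line fell within the nt range. The differences were 0.24 (SE 0.0581, adjusted p = 0.00159) and 0.28 (SE 0.0535, adjusted p = 5.63e-05), or 118% and 122% of the nt level. The lines differed by 0.04 (95% interval −0.12 to 0.20, adjusted p = 0.742). TSPAN31 overlaps 2493 bases of CDK4 and moved the other way in JJN3, by −0.18 (adjusted p = 0.0128), against −0.09 in INA6 (adjusted p = 0.212). The JJN3 call of TSPAN31 was lost with quantile normalisation (0.143), without nt replicate 3 (0.0754) and without knockdown replicate 2 (0.0719), in a range of 0.00461 to 0.143. Without strand, reads in the shared bases cannot be assigned to either gene.

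CDK6, the other kinase partner, had the largest difference of the tested members in INA6. It read 12.54, 12.63 and 12.64 in the nt libraries and 13.05, 12.98 and 12.86 in the knockdown libraries. The lowest knockdown value was above the highest nt value. The difference of 0.36 (SE 0.0465) is 128% of the nt level, with adjusted p = 2.24e-06. In JJN3 the nt libraries lay close together at 12.82, 12.84 and 12.83 and the knockdown libraries at 12.97, 12.95 and 12.86. This difference of 0.10 (SE 0.0388, adjusted p = 0.0385) was fragile. It was −0.004 with quantile normalisation (adjusted p = 0.931), had adjusted p = 0.0871 with no variance trend, and lost its call without any 1 of nt replicates 1 (0.0929), 2 (0.0852) and 3 (0.0831) and knockdown replicates 1 (0.115) and 2 (0.158), in a range of 0.00397 to 0.931. The change was smaller in JJN3 than in INA6 by 0.26 (JJN3 minus INA6 −0.26, 95% interval −0.39 to −0.14, adjusted p = 0.000603). CCND1, CDK4 and CDK6 were called upwards in both lines, 3 of the 6 members tested in both, where 14.2% of 11137 genes were.

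CDKN2C, the inhibitor of both kinases, rose in JJN3 and had no call in INA6. It lies on chromosome 1 from 50960745 to 50974634. In JJN3 it read 12.19, 12.10 and 12.12 in nt and 12.32, 12.36 and 12.44 in knockdown libraries, without overlap. The difference was 0.24 (SE 0.0404, adjusted p = 1.43e-05), or 118% of the nt level, and it was 0.11 with quantile normalisation (adjusted p = 0.0115, in a range of 3.35e-07 to 0.0115). The INA6 values of 12.99, 13.05 and 12.92 in nt and 12.93, 12.97 and 13.00 in knockdown libraries overlapped. The INA6 difference was −0.02 with a 95% interval of −0.11 to 0.07 (adjusted p = 0.69). The change differed between the lines by 0.26 (95% interval 0.14 to 0.38, adjusted p = 0.000485).

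CDK4 and CDKN2C, a kinase gene and the gene of its inhibitor, shared a sequence in the 250 bases before their RefSeq start sites. The hexamer CACGTG, the E-box read by MYC and related factors, reads the same on both strands. It occurred 3 times before CDK4, at 216, 196 and 101 bases before the start, and 1 time before CDKN2C, at 220 bases. Of 27305 such windows in the RefSeq table (GRCh38.p14), 6.49% held it at least once and 24 held it 3 times or more. The CDK4 window is chr12:57752311-57752560 on the minus strand and the CDKN2C window is chr1:50960495-50960744 on the plus strand, shown 5′ to 3′ with CACGTG in capitals.
CDK4: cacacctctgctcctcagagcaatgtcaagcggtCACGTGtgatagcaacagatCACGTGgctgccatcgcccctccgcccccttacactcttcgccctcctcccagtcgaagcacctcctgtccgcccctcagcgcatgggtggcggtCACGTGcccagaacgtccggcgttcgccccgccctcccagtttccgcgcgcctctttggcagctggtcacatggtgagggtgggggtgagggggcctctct
CDKN2C: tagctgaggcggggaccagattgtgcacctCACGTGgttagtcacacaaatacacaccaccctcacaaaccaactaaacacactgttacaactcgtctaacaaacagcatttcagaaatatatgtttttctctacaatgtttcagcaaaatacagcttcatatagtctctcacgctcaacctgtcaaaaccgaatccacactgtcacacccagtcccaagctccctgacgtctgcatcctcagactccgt
The windows of CCND3, MAF, FGFR3, NSD2 and CDK6 held no CACGTG. The CCND3 window, from 42048689 to 42048938 on the minus strand, lies inside the gene's span, which runs to 42050035. The bases before the outer end of that span were therefore not read. A second string, TTTCCCGC on either strand, which resembles E2F sites and does not overlap the first, was found 77 bases before NSD2 only and in 1.42% of all windows. CCND1 and CCND2 had no entry. A match is a description of letters and not a bound site, and any link to the differences was not tested.

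**Figure D3:**
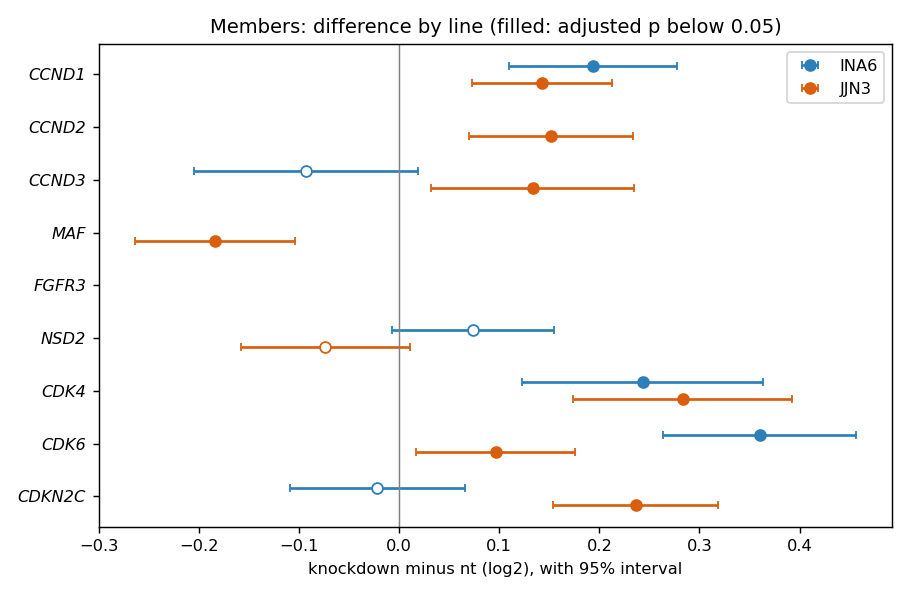
Knockdown minus nt difference of each tested member (log2) with its 95% interval from limma, INA6 in blue and JJN3 in orange; filled points passed an adjusted p of 0.05. CDK4 lies at 0.24 and 0.28 in the 2 lines, CDK6 at 0.36 and 0.10, and CDKN2C at −0.02 and 0.24, while MAF lies at −0.18 in JJN3; FGFR3 was not tested and has no point.

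MAF fell in JJN3, and was listed at 0 and not tested in INA6. MAF, a basic leucine zipper factor, spans chromosome 16 from 79202622 to 79600737. In JJN3 it read 13.71, 13.74 and 13.61 in nt and 13.52, 13.49 and 13.50 in knockdown libraries. All knockdown libraries lay below all nt libraries. At −0.18 (SE 0.0391), MAF kept 88.0% of its nt level, with adjusted p = 0.000232. The neighbour WWOX, whose span overlaps 10046 bases of MAF, was also lower in JJN3, by −0.21 (adjusted p = 0.000677), and stood at −0.07 in INA6 (adjusted p = 0.351). Here too, without strand, reads in the shared bases cannot be assigned to either gene.

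The relatives and known targets of MAF moved in both directions. Of 11 genes on that list, 8 were tested in INA6, where 2 rose and 1 fell (median −0.03), and 9 in JJN3, where 4 rose and 1 fell (median 0.10). Over all tested genes 48.6% were called in INA6 and 51% in JJN3. Of the small MAF proteins, which lack an activation domain, MAFK rose by 0.21 in INA6 and 0.44 in JJN3 (adjusted p = 0.00917 and 4.5e-08) and MAFG by 0.30 and 0.19 (adjusted p = 3.57e-05 and 0.000981). MAFF fell in INA6 (−0.18, adjusted p = 0.0236) and was at −0.11 in JJN3 (adjusted p = 0.158). Some of these calls depended on the setting. MAFK in INA6 was lost without knockdown replicate 2 (adjusted p = 0.0702, range 4.23e-05 to 0.0702), and MAFG in JJN3 with quantile normalisation (0.117, range 8.13e-06 to 0.117). The MAFF call in INA6 did not survive median centring (0.0655) or the removal of nt replicate 1 (0.0748), nt replicate 3 (0.0656) or knockdown replicate 2 (−0.09, 0.241), in a range of 0.0045 to 0.241. MAFF in JJN3 was called without nt replicate 3 (−0.20, 0.0216) or knockdown replicate 3 (−0.21, 0.0063).

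Targets that MAF is known to raise in myeloma went both ways in JJN3. The chemokine receptor gene CCR1 fell by 0.15 (adjusted p = 0.00322), while DEPTOR, an inhibitor of mTOR, rose by 0.19 (adjusted p = 0.000279) and the integrin gene ITGB7 by 0.10 (adjusted p = 0.0491). The ITGB7 groups overlapped, with knockdown replicate 1 at 12.44 within the nt range of 12.41 to 12.49. Its call, close to the threshold, was not tried under the alternatives. The kinase gene NUAK1 stood at −0.09 (adjusted p = 0.129). The CCR1 call was lost without nt replicate 3 (adjusted p = 0.0515, range 1.4e-05 to 0.0515) and that of DEPTOR with quantile normalisation (0.0549, range 5.45e-05 to 0.0549). In INA6, where MAF was listed at 0, CCR1 was at −0.02 and DEPTOR at −0.12, with adjusted p = 0.723 and 0.186.

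NSD2, which writes dimethyl marks on lysine 36 of histone H3, lies on chromosome 4 from 1871393 to 1982192 and had no call in either line. The INA6 values were 12.50, 12.56 and 12.56 in nt and 12.61, 12.62 and 12.62 after knockdown. The JJN3 values were 10.35, 10.42 and 10.40 against 10.30, 10.33 and 10.31. The groups did not overlap in either line, above nt in INA6 and below it in JJN3, but neither difference was called (0.07, 95% interval −0.01 to 0.15, adjusted p = 0.122, and −0.07, −0.16 to 0.01, adjusted p = 0.136). Median centring called the INA6 rise (0.11, adjusted p = 0.0215, in a range of 0.0215 to 0.338) and quantile normalisation the JJN3 fall (−0.14, adjusted p = 0.00553, in a range of 0.00553 to 0.356). The difference between lines was −0.15 (95% interval −0.26 to −0.03, adjusted p = 0.042), and 11 of 18 alternatives ended that call (range 0.00707 to 0.113), among them every removal of 1 library except INA6 knockdown replicate 1, JJN3 nt replicate 1 and JJN3 knockdown replicate 3.

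FGFR3, a receptor tyrosine kinase gene from 1793293 to 1808867 on chromosome 4, was too low to be tested in either line. It read 2.34, 2.42 and 2.35 in nt and 2.42, 2.43 and 2.46 in knockdown libraries of INA6. The JJN3 values were 2.85, 2.84 and 2.92 against 2.87, 2.87 and 2.98. The groups overlapped in both lines. With no filter its differences of 0.07 and 0.03 had adjusted p = 0.167 and 0.55.

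Other genes that control G1 were taken from a list of 31, of which 29 were tested in INA6 and 30 in JJN3. In INA6 15 rose and 6 fell, with a median of 0.13, and in JJN3 13 rose and 8 fell, with a median of 0.07. Over all tested genes 24.7% rose and 24% fell in INA6, and 25.5% rose and 25.5% fell in JJN3. CDC25A, the phosphatase that activates CDK2, rose by 0.53 in INA6 and 0.41 in JJN3 (adjusted p = 7.65e-09 and 5.78e-09). The activating factors E2F1 (0.29 and 0.51), E2F2 (0.36 and 0.46) and E2F3 (0.49 and 0.24) rose in both lines, with adjusted p of at most 0.000786. RBL2, a pocket protein that holds E2F targets silent in resting cells, fell by 0.52 and 0.47 (adjusted p = 6.56e-08 and 4.02e-10). The inhibitors CDKN1B, which encodes p27, and CDKN2D, an INK4 relative of CDKN2C, fell in both lines by 0.35 and 0.14 and by 0.39 and 0.15. CDKN2B, another INK4 relative, rose by 0.43 in INA6 and 0.15 in JJN3 (adjusted p = 3.95e-05 and 0.0392). Its JJN3 groups overlapped, with knockdown replicate 3 at 6.18 within the nt range of 6.05 to 6.22. These 3 inhibitors were chosen after their values were seen, and their calls were not tried under the alternatives.

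**Figure D4:**
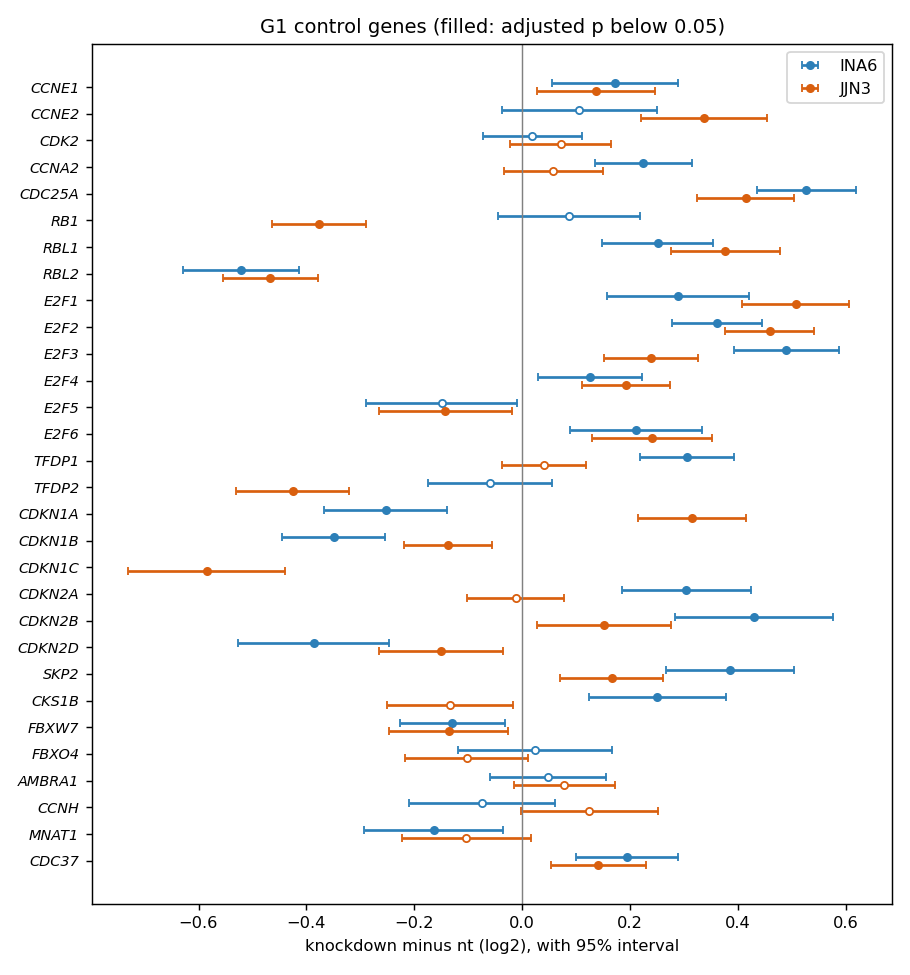
Knockdown minus nt difference (log2) with its 95% interval for the G1 control genes tested in at least 1 line, INA6 in blue and JJN3 in orange; filled points passed an adjusted p of 0.05. CDC25A, E2F1, E2F2 and E2F3 lie to the right of 0 and RBL2 to the left in both lines, while CDKN1A lies at −0.25 in INA6 and at 0.31 in JJN3.

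Of 25 listed neighbours of the members 21 were tested in each line. In INA6 5 rose and 5 fell (median 0.004), where 48.6% of all tested genes were called, and in JJN3 4 rose and 10 fell (median −0.09), where 51% were. Some moved with their member and others against it. LTO1, 11.1 kb from CCND1, rose with it in INA6 by 0.34 (adjusted p = 2.41e-05) and was at 0.09 in JJN3 (adjusted p = 0.17). BYSL, 1.89 kb from CCND3, rose with it in JJN3 by 0.19 (adjusted p = 0.00101) and rose by 0.36 in INA6 (adjusted p = 7.56e-06), where CCND3 had no call. Both were chosen after their values were seen. Beside CDK4, which rose, the ubiquitin ligase gene MARCHF9 at a distance of 2.79 kb fell by 0.47 in INA6 and 0.42 in JJN3 (adjusted p = 2.05e-07 and 1.42e-08). GATAD1, 109 kb from CDK6, fell by 0.41 and 0.76 (adjusted p = 9.01e-07 and 1.37e-12), and SAMD9, 263 kb away on the other side, fell by 0.33 in JJN3 (adjusted p = 1.37e-06) and was at 0.03 in INA6 (adjusted p = 0.654). TAF8, which encodes a TFIID subunit 0.489 kb from CCND3, fell by 0.33 in JJN3 (adjusted p = 1.78e-06) and was at −0.02 in INA6 (adjusted p = 0.826). MED20 and USP49, also listed near CCND3, fell in JJN3 by 0.26 and 0.27 (adjusted p = 0.000222 and 0.000113). Neither was called in INA6 (adjusted p = 0.289 and 0.612), and both were named after their values were seen. LETM1, 2.61 kb from FGFR3, rose by 0.31 and 0.29 (adjusted p = 3.56e-06 and 2.12e-06). SLBP, which binds histone mRNA and lies 81.0 kb from FGFR3, rose by 0.34 and 0.32 (adjusted p = 1.63e-06 and 2.32e-06). Of the listed genes between SLBP and FGFR3, TACC3 rose by 0.30 and 0.16 (adjusted p = 1.14e-05 and 0.00462). TMEM129 fell by 0.32 in INA6 (adjusted p = 1.58e-05) and was at 0.002 in JJN3 (adjusted p = 0.971). TACC3 and TMEM129 were named after their values were seen. MYEOV, 344 kb from CCND1 and named here after its value was seen, had an nt mean of 9.10 in INA6, fell there by 0.21 (adjusted p = 0.00172), and was listed at 0 in JJN3.

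For each member tested in both lines, the genes with the most similar course over the 12 libraries were found among 11137 genes, as the Euclidean distance between values centred on the nt mean of each line. CHCHD3 was nearest to CCND1 (distance 0.0859, where the median gene was at 0.542), followed by LSG1 and FAM168B. EMD was nearest to CCND3 (0.0968, median 0.552), then SLIT1 and ACSF3. The genes GDE1, SSH1 and FAM86C1 were nearest to NSD2, GDE1 at 0.0767 against a median of 0.455. For CDK4 the order was DPP3 (0.133, median 0.738), UTP4 and ZNF407, and for CDK6 it was PCF11 (0.106, median 0.731) and XPO4. CLCN2 (0.117, median 0.597), DGCR2 and HDAC4 were nearest to CDKN2C. These distances describe the 12 libraries and mostly read the size of the 2 differences.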

How the data were processed

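For each line the authors deposited 1 table of rlog values (log2 scale), 28277 symbols by 6 libraries. Messenger RNA was selected on poly-T beads and copied from random hexamers, per the labels' protocols. The submitters' processing notes name Trim Galore, Bowtie2, HTSeq, DESeq2 and the build hg38; versions, annotation and strand settings are not stated. Samples were grouped by title; another 4 JJN3 accessibility libraries were not analysed here. In INA6 8911 and in JJN3 10073 symbols were at 0 throughout. The tables hold no counts, so depth is unknown and no counting interval was given.

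Within each line, limma 3.58.1 in R 4.3.3 (lmFit, eBayes with a mean-variance trend) was fitted to genes with a mean of at least 3, with Benjamini-Hochberg adjustment over all of them and two-sided p. Differences are knockdown minus nt, n = 3 per group. Lines were compared by the difference of differences over the root of the summed squared standard errors, adjusted over 11137 genes. An exact permutation test of 3 against 3 libraries cannot go below 0.1 and was not used. Alternatives were other filters, median centring, quantile normalisation, a replicate block, no variance trend and leaving out each library. Coordinates and promoter windows are from RefSeq, GRCh38.p14; 27661 symbols matched the reference names. The members and lists were chosen with earlier results of these data known. Named were the members, KANSL2, the 4 genes per list and line with the smallest p, genes overlapping a member and the 3 nearest profiles per member; some of these are not reported here.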

Additional observations from a re-analysis of the deposited data

Results flagged for a closer look

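Differences between the 2 lines in the response of a member (JJN3 minus INA6, log2) were 0.23 for CCND3, −0.15 for NSD2, −0.26 for CDK6 and 0.26 for CDKN2C, each with an adjusted p below 0.05 in the test of the difference itself. For CDK6 and CDKN2C this held under all 18 alternatives (adjusted p of at most 0.00574 and 0.00699). That for NSD2 did not, as described above, and that for CCND3 rested on JJN3 nt replicate 1 and knockdown replicate 2. The 4 members named here were among 6 tested in both lines, where 30% of 11137 genes differed.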

How the results depend on the processing

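The rises of CCND1 and CDK4 in both lines, of CDK6 in INA6 and of CDKN2C in JJN3 and the fall of MAF in JJN3 kept direction and call under every alternative that gave them a value (CCND1 in JJN3 was not tested with a minimum mean of 5). Members called in INA6 numbered 3 in each alternative except median centring (4). In JJN3 they numbered 5 to 7. Members differing between lines fell from 4 of 6 tested to 2 without JJN3 knockdown replicate 2. They ranged from 2 to 4 when single libraries were left out. Of all 11137 genes tested in both lines 30% differed with all libraries, so 2 of 6 is near that background. The replicate numbers did not pair the libraries: deviations of same-numbered libraries correlated between −0.296 and 0.0045. With the replicate block 5626 genes were called in INA6 and 6205 in JJN3, against 6084 and 6264, the member calls were 3 and 7, and NSD2 lost its difference between lines (−0.15, adjusted p = 0.0874). With no filter 5679 and 5889 genes were called and with a minimum mean of 5 5595 and 5732. Values whose sign turned were all near 0 after the turn, though CDK6 in JJN3 was a called rise of 0.10 in the fit described above. With median centring these were 0.0152 for CDKN2C, 0.0137 for CCR1 and 0.0215 for TAF8 in INA6 and 0.0147 for CDKN2A in JJN3. With quantile normalisation they were −0.0177 for SAMD9 in INA6, −0.0040 for CDK6 in JJN3 and 0.0197 for the difference between lines of CCND1. Leaving out single libraries gave −0.0554 to 0.00997 for CDKN2C, −0.0559 to 0.0236 for CCR1, −0.0100 to 0.0903 for SAMD9 and −0.0355 to 0.0104 for TAF8 in INA6, −0.0630 to 0.0293 for CDKN2A in JJN3, and −0.000168 to 0.0809 for the difference between lines of CDK4. Causes were not tested. Levels per length were not run, since transcript lengths were not used here. Unknown depth limits what can be said of FGFR3, of CCND1 in JJN3 and of values listed at 0.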

Other observations

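Of the 29 listed G1 control genes tested in both lines, 14 differed between the lines, where 30% of all genes did. Those named here were chosen after their values were seen. Because KANSL2 fell less in INA6 than in JJN3, line and depth of knockdown cannot be told apart in these differences. CDKN1A, which encodes the p53-induced inhibitor p21, fell by 0.25 in INA6 (adjusted p = 0.000656) and rose by 0.31 in JJN3 (adjusted p = 3.94e-06), a difference of 0.57 (95% interval 0.42 to 0.72, adjusted p = 2e-08). RB1, the retinoblastoma gene, was at 0.09 in INA6 (adjusted p = 0.269) and fell by 0.38 in JJN3 (adjusted p = 1.98e-08), and TFDP2, an E2F partner, was at −0.06 (adjusted p = 0.394) and fell by 0.43 (adjusted p = 5.83e-08). The differences between lines were −0.46 for RB1 and −0.37 for TFDP2 (adjusted p = 3.99e-06 and 0.000149). CDKN2A rose by 0.30 in INA6 (adjusted p = 0.000177) and was at −0.01 in JJN3 (adjusted p = 0.835), a difference of −0.32 (adjusted p = 0.000568). Quantile normalisation called CDKN2A lower in JJN3 (−0.11, adjusted p = 0.0319), and RB1 was called higher in INA6 without knockdown replicate 3 (0.15, adjusted p = 0.0459). CDKN1C, which encodes the inhibitor p57, had an nt mean of 7.02 in JJN3 and fell there by 0.59 (adjusted p = 6.14e-08), and was too low to test in INA6.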
